A study of Mus musculus with 30 samples.

Results

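Liver and retina were compared in 7-month-old male C57BL/6J mice on the low-glycemic (LGI) diet, across all genes and across the transcripts of each gene. The members were the 4 liver and 4 retina libraries that the sample labels give for wild-type animals, LGI diet and 7 months, 8 of the 30 libraries of the series, which also holds mice on a high-glycemic (HGI) diet and mice fed for 12 months. The LGI diet held 70% amylose and 30% amylopectin as its starch and was fed for 1 month from the age of 6 months, and mice were fasted for 6 h before tissue was taken. The labels and methods name no transgene or engineered deletion, and both groups shared strain, sex, diet and age. Liver samples were pieces of 100 mg and retinal samples were whole retinas, so every value is an average over the cell types of the tissue. The methods describe groups of 4 mice by age and diet, each mouse housed alone. The labels do not tie a library to a mouse, so no liver was paired with a retina, and p-values measure the spread between these samples. Fewer cells of a type and less RNA per cell cannot be told apart in such samples, and tissue cannot be told apart from how the sample was taken, as a piece of liver or a whole retina. Libraries of both tissues were sequenced on a shared lane, and the methods describe a step against index hopping, in which reads of one library are assigned to another. Low levels of retinal genes in liver are therefore given as listed in the tables, and the part of index hopping in them was not tested.

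The retina is a layer of neurons and glia. In rods and cones, light activates an opsin, the opsin activates the G protein transducin, and transducin activates a phosphodiesterase that removes cyclic GMP and lets the cation channels of the outer segment close. Bipolar, horizontal and amacrine cells pass the signal on to ganglion cells, and Müller glia recycle transmitter. Hepatocytes make most of the proteins of blood plasma, turn ammonia into urea, make bile acids, oxidise drugs and fatty acids, and take up or release glucose as feeding requires.

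The livers had 11.3 to 44.9 M estimated gene counts and the retinas 16.8 to 27.2 M. The 10 genes with the most counts took 27.8 to 32.4% of a liver library and 12.1 to 13.5% of a retinal library, so levels are given as CPM (counts scaled to a common library size) after scaling by trimmed means (TMM), whose factors were 0.45 to 0.59 in liver and 1.78 to 1.93 in retina. Log2 CPM correlated at 0.985 to 0.991 between livers, at 0.97 to 0.995 between retinas and at 0.375 to 0.418 between a liver and a retina. Each tissue held its defining markers: albumin, apolipoprotein A1, Cps1 and Cyp2e1 in the livers, and the markers of rods, cones, bipolar cells, Müller glia and ganglion cells in the retinas. Lens crystallin alpha A (Cryaa) stood at 10.3 and 15.3 CPM in retina replicates 1 and 3, at 0.0457 and 0.193 CPM in replicates 2 and 4 and at 0 in the livers, and Rpe65 of the pigment epithelium at 6.5 to 10.9 CPM in the retinas. By the test described next, 6 of 9 pigment epithelium genes were higher in retina and 3 were higher in liver. Of 5 lens genes tested, 2 were higher in retina and 3 were not called. Over all genes 39.5% were higher in retina and 28.3% in liver.

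Of 15505 genes with more than 1 CPM of library totals, before scaling, on average in at least 1 tissue, 4383 (28.3%) were higher in liver and 6124 (39.5%) were higher in retina, by limma-voom with a Benjamini-Hochberg adjusted p below 0.05 and a fold change of at least 2. With library totals in place of TMM, 2013 were higher in liver and 10714 in retina, so the split depends on the scaling. Log2 fold changes (logFC) are liver minus retina, so positive values are higher in liver. The median logFC of all genes tested was -0.32. In 12179 genes (78.5%) the 4 livers and the 4 retinas did not overlap. A gene was called restricted to a tissue where it was called, at least 64-fold higher and at 10 CPM or more there. By this rule 721 genes (4.65%) were liver-restricted and 905 (5.84%) were retina-restricted, or 487 and 1593 with library totals. A gene was called shared where the 95% interval of its logFC lay within 1 of 0 and both tissues averaged 10 CPM or more, and 1950 genes (12.6%) were.

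**Figure D1:**
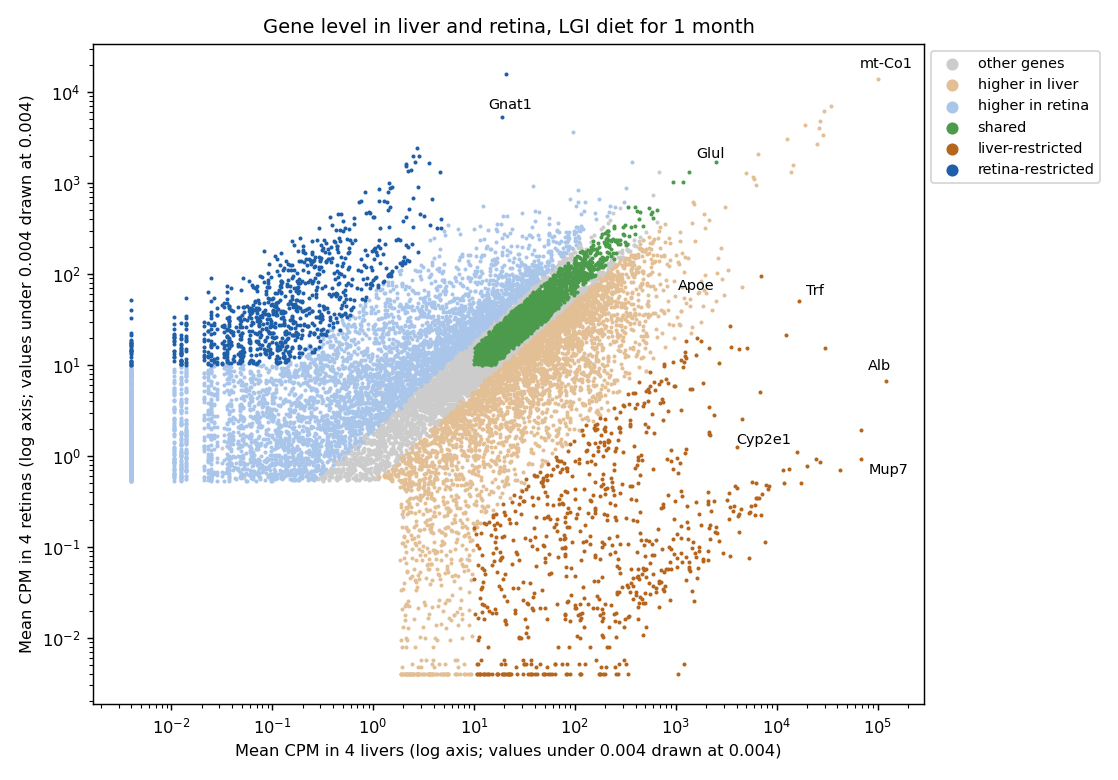
Mean CPM in 4 livers (x axis) against mean CPM in 4 retinas (y axis) for the 15505 genes tested, both on log scales, with liver-restricted, retina-restricted and shared genes coloured. The 721 liver-restricted genes lie along the lower right, the 905 retina-restricted genes along the upper left and the 1950 shared genes along the diagonal.

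The restricted genes of each tissue took unequal parts of its RNA. Liver-restricted genes took 48 to 53.2% of the counts of a liver library and 0.154 to 0.168% of a retinal one. Retina-restricted genes took 19.1 to 21.7% of a retinal library and 0.0153 to 0.0222% of a liver library. Shared genes took 5.42 to 5.98% of liver and 18.4 to 19.9% of retinal counts. These genes were called on near-equal CPM after TMM, so their unequal shares of unscaled counts follow from the TMM factors. The fold changes also differed in range on the TMM scale. With library totals the median logFC of all genes moves by -1.84, which narrows the gaps of liver genes and widens those of retinal genes. The ranges below therefore depend on the scaling. Among liver-restricted genes logFC ran from 6.01 to 17.74 with a median of 10.08 (9.98 with the 55 genes that had no retinal count set to their lower bound), and 367 of 721 exceeded 10. Among retina-restricted genes the size of logFC ran from 6.01 to 10.62 with a median of 8.12 (logFC -8.12, or -8.09 with 29 genes without a liver count at their bound), and 22 of 905 exceeded 10. The 20 most abundant retina-restricted genes stood in these livers at a median of 0.159% of their retinal level. The 20 most abundant liver-restricted genes stood in retina at 0.00533% of their liver level, both by CPM after TMM. Such a trace sets a ceiling on a fold change, and its part in the unequal ranges was not tested. Most restricted genes were protein-coding, 671 in liver and 867 in retina, and 21 and 20 were lincRNAs. Just inside the 64-fold limit lay Adap2 in liver (logFC 6.01) and Raver2 in retina (-6.01), and just outside it Dap (5.98) and Syt7 in retina.

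Retinal genes are described first, from the photoreceptors inward. All 24 genes of rod phototransduction tested were higher in retina, against 39.5% of all genes, and 23 were retina-restricted, against 5.84%. Their median logFC was -9.30. Gnat1, the alpha subunit of rod transducin, had 7190, 4423, 4975 and 4899 CPM in the retinas and 19.2, 16.5, 20.6 and 20.3 CPM in the livers. Every retina lay far above every liver, with Gnat1 at logFC -8.12 ± 0.18 (SE; limma adjusted p = 7.58e-12). Phosducin (Pdc), which binds the beta and gamma subunits of transducin, had 2143 to 2941 CPM in retina and 1.63 to 3.45 CPM in liver. The single gene of the list that was not restricted was Gnb1, a beta subunit used by many G proteins, at 3659 ± 238 CPM (SD, n = 4) in retina and at 78.0 CPM or more in every liver, a 38.4-fold difference. Sag (arrestin) and Pde6b, a subunit of the rod phosphodiesterase, were 491-fold and 662-fold higher in retina.

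All 13 genes of cone phototransduction were higher in retina and 10 were restricted, with a median logFC of -8.17. Opn1sw, the short-wavelength opsin, stood at 164 to 188 CPM in retina and 0.394 to 0.693 CPM in liver (logFC -8.17 ± 0.26). Gnat2, the alpha subunit of cone transducin, stood at 94.6 to 120 CPM in retina and at 1.05 to 1.97 CPM in liver and was only just restricted (logFC -6.09 ± 0.24). Grk1, the opsin kinase used by both photoreceptor types, had 1392 ± 143 CPM in retina and 2.40 ± 0.545 CPM in liver. The calcium sensor Guca1a varied more between retinas, from 71.4 to 154 CPM, with replicate 1 the highest.

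Synaptic and inner retinal genes were nearly all higher in retina, with the exceptions named here. All 16 genes of the photoreceptor synapse were higher in retina and 13 were restricted, with a median logFC of -8.88. Snap25, a SNARE protein of synaptic vesicle release, had 779, 1244, 983 and 1038 CPM in retina and 1.18 to 2.10 CPM in liver. Stx3, the syntaxin of ribbon synapses, stood at 509 ± 23.0 CPM in retina and 1.41 ± 0.328 CPM in liver. Syt1, a calcium sensor of vesicle release, was 23.9-fold higher in retina and not restricted, because the livers held 34.6 to 42.5 CPM. Syt1 and Prkca are examples of retinal genes with a clear liver level.

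Among inner neurons, all 12 bipolar genes were higher in retina and 8 were restricted (median logFC -8.71, or -8.63 with 2 genes at 0 in liver set to their bound). Trpm1, the channel of ON bipolar cells, stood at 91.9 to 122 CPM in retina and at 0 to 0.254 CPM in liver. Prkca, a kinase used as a label of rod bipolar cells, was 12.3-fold higher in retina and had 20.6 to 27.1 CPM in liver. Of 14 amacrine and horizontal cell genes, 13 were higher in retina, 8 of them restricted, and the median logFC was -8.46 (-8.26 with 3 genes at their bound). The remaining one, Onecut2, a factor that both horizontal cells and hepatocytes use, was higher in liver, at 133 to 290 CPM against 4.49 to 8.57 CPM (logFC 4.80 ± 0.27). Gad1, which makes the transmitter GABA, and Calb2 (calretinin) were 497- and 1360-fold higher in retina. Of 12 ganglion cell genes, 11 were higher in retina and 8 restricted (median logFC -7.79, or -7.58 with 2 genes at their bound). Nefl and Nefm, neurofilament subunits of axons, had logFC -9.51 and -9.62, and Thy1 had -6.84. The remaining one, Rbpms, an RNA-binding protein used as a ganglion cell label, was shared, at 20.2 ± 1.71 CPM in retina and 20.6 ± 3.10 CPM in liver.

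Of 12 Müller glia genes, 7 were higher in retina, 2 were higher in liver and 3 were shared, and the median logFC was -1.51. Over all genes the shares were 39.5%, 28.3% and 12.6%. With library totals 10 were higher in retina and 1 in liver, and the median was -3.36. Rlbp1, which carries retinaldehyde in the visual cycle, stood at 216 to 251 CPM in retina and 0.338 to 0.600 CPM in liver. Dkk3, a secreted Wnt modulator, was 163-fold higher in retina. Apoe, the apolipoprotein that hepatocytes and glia secrete, was 51.8-fold higher in liver, and clusterin (Clu) was 6.15-fold higher there, or under the 2-fold limit with library totals (logFC 0.80). Glul, glutamine synthetase, which removes glutamate in Müller glia and ammonia in hepatocytes near the central vein, had 1168, 1724, 1270 and 1292 CPM in liver and 1274, 1494, 1337 and 1181 CPM in retina. The tissues overlapped, and the logFC of Glul was 0.03 ± 0.15 (limma adjusted p = 0.839), whereas library totals gave -1.78 (adjusted p = 1.15e-08).

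All 16 transcription factors of the retina list were higher in retina and 13 were restricted, with a median logFC of -9.01. Nrl, the factor that sets rod fate, had 852 to 923 CPM in retina and 1.02 to 2.25 CPM in liver. Crx, the homeobox factor of both photoreceptor types, had 595 to 682 CPM in retina and 0.550 to 1.05 CPM in liver. Nr2e3, which represses cone genes in rods, and Rorb stood at 229 ± 36.3 and 203 ± 20.6 CPM in retina with logFC -8.88 and -9.86. Among restricted genes of at least 100 CPM, the widest gaps in this direction belonged to Neurod1 (logFC -10.60), Tulp1 (-10.60), Gucy2f (-10.43), Kcnj14 (-10.41) and Calb2 (-10.41). Neurod1 is a neuronal transcription factor, Tulp1 a photoreceptor trafficking protein and Gucy2f a retinal guanylate cyclase. Their liver counts were few: Calb2 had 5 counts over the 4 livers and Kcnj14 had 15.

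**Figure D2:**
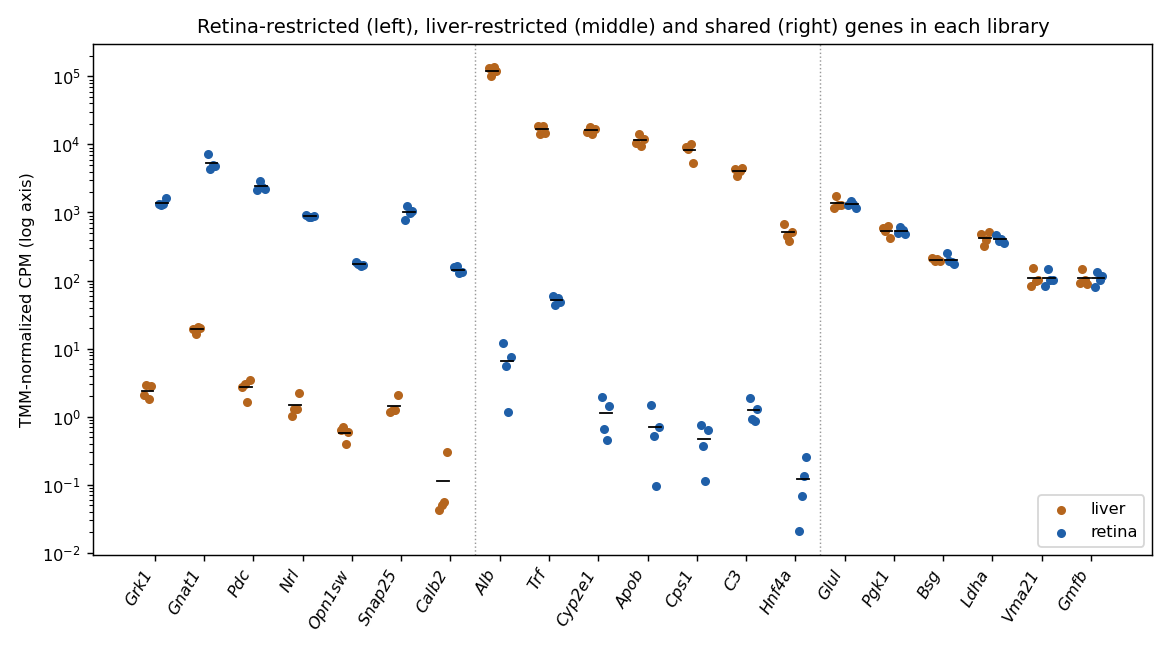
CPM per library on a log axis for 20 named genes, with 1 point for each of 4 livers and 4 retinas. The 7 retinal genes and the 7 liver genes show groups that do not overlap, and the 6 shared genes, among them Glul and Pgk1, show overlapping ones.

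The liver genes were led by secreted proteins. All 24 genes of plasma proteins were higher in liver, against 28.3% of all genes, and 21 were liver-restricted, against 4.65%, with a median logFC of 13.73. Albumin (Alb), the main carrier protein of plasma, stood at 132000, 100000, 136600 and 119400 CPM in the livers and at 12.2, 5.56, 1.17 and 7.63 CPM in the retinas. The retinas differed among themselves and every one lay far below every liver (Alb logFC 14.64 ± 0.52, limma adjusted p = 1.29e-10). Transferrin (Trf), which carries iron, had 14160 to 18850 CPM in liver and a steady 43.2 to 58.5 CPM in retina, which gave it a smaller gap (logFC 8.34 ± 0.15). The vitamin D carrier Gc and the serine protease inhibitor Serpina3k had logFC 14.44 and 15.32. Serpina3k, like Serpina1 genes, has close copies among which reads can be split.

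All 12 apolipoprotein genes were higher in liver and 11 were restricted (median logFC 12.83). Apob, the protein of very-low-density lipoprotein, stood at 11560 ± 1940 CPM in liver and 0.706 ± 0.587 CPM in retina. All 21 complement genes were higher in liver and 17 were restricted (median logFC 10.09). C3, the central component, had 4086 ± 505 CPM in liver and 1.25 ± 0.477 CPM in retina.

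The metabolic lists of liver moved in the same direction with different gaps. All 8 urea cycle genes were higher in liver and 7 were restricted (median logFC 9.54, or 9.31 with 1 gene at its bound). Cps1, which takes up ammonia, had 5389 to 10190 CPM in liver and 0.115 to 0.759 CPM in retina, and Otc, its neighbour in the cycle, had logFC 14.23. Ass1, which also supplies arginine outside the liver, had 13.4 to 19.1 CPM in retina and logFC 7.69. All 21 genes of amino acid breakdown were higher in liver and 17 were restricted (median 10.56), among them Tdo2, which degrades tryptophan (logFC 14.18). All 12 genes of bile acid synthesis and transport were restricted to liver (median 10.65). The uptake carrier Slc10a1 had logFC 14.02, the export pump Abcb11 had 10.02, and Cyp7b1, an oxysterol hydroxylase, had 7.88 and spread from 277 to 1146 CPM between livers.

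All 20 cytochrome P450 genes were liver-restricted, with a median logFC of 13.99. Cyp2e1, which oxidises ethanol and ketone bodies, stood at 15360, 18090, 14010 and 16820 CPM in liver and at 0.459 to 1.93 CPM in retina. Cyp3a11 and Cyp2c29, drug-oxidising enzymes of families with close copies, had logFC 14.10 and 15.01. Fatty acid oxidation and ketone synthesis was the liver list with the smallest gap. All 18 genes were higher in liver and 5 were restricted, with a median logFC of 4.22. Cpt1a, which admits fatty acids to mitochondria, was 6.77-fold higher in liver with 100 ± 14.5 CPM in retina, and fell under the 2-fold limit with library totals (logFC 0.93).

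All 16 transcription factors of the liver list were higher in liver and 9 were restricted, with a median logFC of 9.05. Hnf4a, a nuclear receptor of hepatocytes, had 671, 454, 386 and 524 CPM in liver and 0.0205 to 0.257 CPM in retina (logFC 12.33 ± 0.53). Cebpa had logFC 9.48. Prox1, which is also used by horizontal and amacrine cells, was 2.04-fold higher in liver, with 112 ± 17.5 CPM in retina, turned to retina with library totals (logFC -0.83) and fell under the 2-fold limit without liver replicate 36 (logFC 0.86) or retina replicate 1 (0.96). The widest gaps of all belonged to the major urinary proteins, carriers of pheromones that male mouse liver secretes. Mup7 had 79020, 118800, 17580 and 59520 CPM in liver and 0.210 to 1.72 CPM in retina (logFC 16.25 ± 0.80), and liver replicate 35 was the lowest. Mup15 had no count in any retina, which at 3 counts over the 4 retinas put it at least 61300-fold higher in liver. The Mup genes are nearly identical copies, so the split of reads among them is uncertain.

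Promoter sequences of restricted genes were searched for short motifs of factors known in each tissue. The 250 bases before the RefSeq starts of a gene (GRCm38.p6) were read for TAATCC, bound by CRX and its relatives, TGCTGAC, part of the NRL site, GTTAAT, part of the HNF1 site, CAAAGTCCA, an HNF4A site, and TATAAA, on both strands. TAATCC and GTTAAT share the letters TAAT and can overlap. A promoter was found for 679 retina-restricted and 541 liver-restricted genes. TAATCC stood before 11.6% of retina-restricted genes (79), 7.21% of liver-restricted genes, 6.31% of shared genes, 6.64% of all genes tested and 7.21% of all 27025 genes with a promoter. GTTAAT stood before 16.3% of liver-restricted genes (88), 7.07% of retina-restricted genes, 4.35% of shared genes, 5.65% of genes tested and 7.49% of all genes. CAAAGTCCA stood before 2.03% of liver-restricted genes (11) and 0.147% of retina-restricted genes (1), against 0.451% of all genes. TGCTGAC stood before 4.57% of retina-restricted and 6.28% of liver-restricted genes, against 4.31% of all genes, and TATAAA before 12.2% and 20.3%, against 14.3%. These shares are a description of the letters, and genes of retina had more start sites searched (1.42 per gene, against 1.23 in liver and 1.22 over all genes).

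Promoters of 6 genes are printed as examples chosen after their letters and values were seen, because each holds a motif of its tissue close to the start. Each run is the 150 bases before the start on the strand of the gene, with the motif matches in capitals.
Rbp3, chr14:33953853-33954002, plus strand: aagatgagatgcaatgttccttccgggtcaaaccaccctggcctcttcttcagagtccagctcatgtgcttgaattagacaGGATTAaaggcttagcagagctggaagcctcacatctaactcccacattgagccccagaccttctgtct
Crx, chr7:15879956-15880105, minus strand: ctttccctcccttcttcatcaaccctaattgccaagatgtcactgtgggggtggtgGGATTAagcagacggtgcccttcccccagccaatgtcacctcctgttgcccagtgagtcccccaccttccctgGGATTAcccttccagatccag
Pde6b, chr5:108388223-108388372, plus strand: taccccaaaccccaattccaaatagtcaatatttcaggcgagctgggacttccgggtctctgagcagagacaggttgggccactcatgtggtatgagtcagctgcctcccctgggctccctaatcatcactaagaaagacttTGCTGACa
Alb, chr5:90460720-90460869, plus strand: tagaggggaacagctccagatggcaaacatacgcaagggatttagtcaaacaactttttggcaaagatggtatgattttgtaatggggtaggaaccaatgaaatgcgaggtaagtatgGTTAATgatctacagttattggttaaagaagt
Fabp1, chr6:71199729-71199878, plus strand: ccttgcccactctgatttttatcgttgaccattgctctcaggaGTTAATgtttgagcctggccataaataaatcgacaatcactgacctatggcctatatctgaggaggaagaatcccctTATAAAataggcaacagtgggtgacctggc
Cyp8b1, chr9:121916306-121916455, minus strand: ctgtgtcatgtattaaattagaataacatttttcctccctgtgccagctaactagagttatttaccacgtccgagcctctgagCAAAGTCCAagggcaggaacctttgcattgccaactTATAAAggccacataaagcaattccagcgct

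Rbp3, the retinoid carrier between photoreceptors and pigment epithelium, holds TAATCC on its other strand (GGATTA) from 69 to 64 bases before the start, and Crx holds it at 94 and at 21 bases before its own start. Pde6b holds TGCTGAC from 8 to 2 bases before the start. Rbp3 stood at 1966 ± 227 CPM in retina and 2.49 ± 0.941 CPM in liver. The Alb promoter holds GTTAAT from 32 to 27 bases before the start, Fabp1 holds GTTAAT from 107 and TATAAA from 30 bases before it, and Cyp8b1 holds CAAAGTCCA from 67 and TATAAA from 31 bases before it. Fabp1, the fatty acid-binding protein of liver, stood at 6084 ± 1220 CPM in liver and 0.225 ± 0.164 CPM in retina. Cyp8b1, the sterol hydroxylase that sets the share of cholic acid among bile acids, stood at 132 to 281 CPM in liver and had 2 counts over the 4 retinas.

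Many reactions that both tissues run were carried by different members of a gene family. Levels per length (TPM, transcript counts divided by annotated length and scaled to a common sum) were summed within 20 families of enzymes, transporters and pumps. TPM was not scaled by TMM, which leaves shares within a family unchanged but makes sums in liver and retina differ from CPM. Mat2a, for example, stood at 25.2 ± 4.15 TPM in liver and 157 ± 24.5 TPM in retina, although it was shared by CPM. In 17 families the member with the largest share differed between liver and retina, and in 3 it was the same. The main member was the same in all 4 libraries of a tissue in all 20 families. The 20 families were chosen with tissue forms of metabolic enzymes in mind, so the count describes them and no wider set.

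Glucose entry and glycolysis showed such exchanges. Slc2a2, a transporter of low affinity, made up 99.5% ± 0.177 (SD, n = 4) of liver glucose transporter TPM, and Slc2a1 and Slc2a3, transporters of high affinity, made up 57.5% ± 7.96 and 42.4% ± 7.91 of the retinal sum. Pfkm and Pfkp led phosphofructokinase in liver (57.7% ± 2.15) and retina (63.7% ± 3.90), at sums of 5.12 ± 1.84 and 368 ± 84.3 TPM. Summed as CPM after TMM, the family stood at 13.2 to 24.6 CPM in liver and 245 to 382 CPM in retina. Pklr made up 97.3% ± 0.809 of pyruvate kinase in liver, and Pkm made up all but 0.00478% of it in every retina. Enolase, lactate dehydrogenase and cytochrome c oxidase subunit 4 had Eno1, Ldha and Cox4i1 as main member in both tissues. Even there the retinas held more of the second member: Eno2 at 19.1% ± 1.33 against 0.455% ± 0.435, Ldhb at 8.66% ± 2.07 against 0.682% ± 0.211, and Cox4i2 at 9.41% ± 0.750 against 0.0360% ± 0.0399.

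Glycogen and glucose release were also split. Gys2 made up 99.9% ± 0.0161 of glycogen synthase in liver and Gys1 96.6% ± 3.83 in retina, at sums of 181 ± 63.7 and 5.33 ± 1.49 TPM. Pygl made up 99.6% ± 0.248 of glycogen phosphorylase in liver, whereas Pygb (50.2% ± 1.90) and Pygm (37.4% ± 3.97) led in retina. G6pc, which releases glucose into blood, made up 98.7% ± 0.671 in liver, and the widely used G6pc3 made up 99.9% ± 0.105 in retina. Pck1, the cytosolic carboxykinase of gluconeogenesis, made up 99.9% ± 0.0241 in liver at a sum of 604 ± 146 TPM, and the mitochondrial form Pck2 led in retina at a sum of 7.32 ± 2.97 TPM.

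Amino acid, lipid and ion families gave the same kind of result. Methionine adenosyltransferase was Mat1a in liver (97.1% ± 0.924) and Mat2a in retina (99.6% ± 0.216), although Mat2a itself was a shared gene, at 97.2 ± 21.7 CPM in liver and 117 ± 17.1 CPM in retina. Scd1 made up all of stearoyl-CoA desaturase in liver to within 0.0425% and Scd2 made up 94.3% ± 0.506 in retina. Scd1 spread widely between livers, at 26820, 24050, 60620 and 8802 CPM, with replicate 35 high and replicate 36 low. Elovl5, the main member, and Elovl2 (33.5% ± 2.53), elongases of polyunsaturated fatty acids, led in liver, and Elovl4 (79.4% ± 1.15), which makes the very long chains of photoreceptor membranes, led in retina. Fabp1 made up 96.9% ± 1.72 of fatty acid-binding proteins in liver and Fabp12 76.2% ± 4.13 in retina. The beta subunit of the sodium pump was mainly Atp1b1 in liver (61.3% ± 1.36) and Atp1b2 in retina (65.4% ± 4.28).

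**Figure D3:**
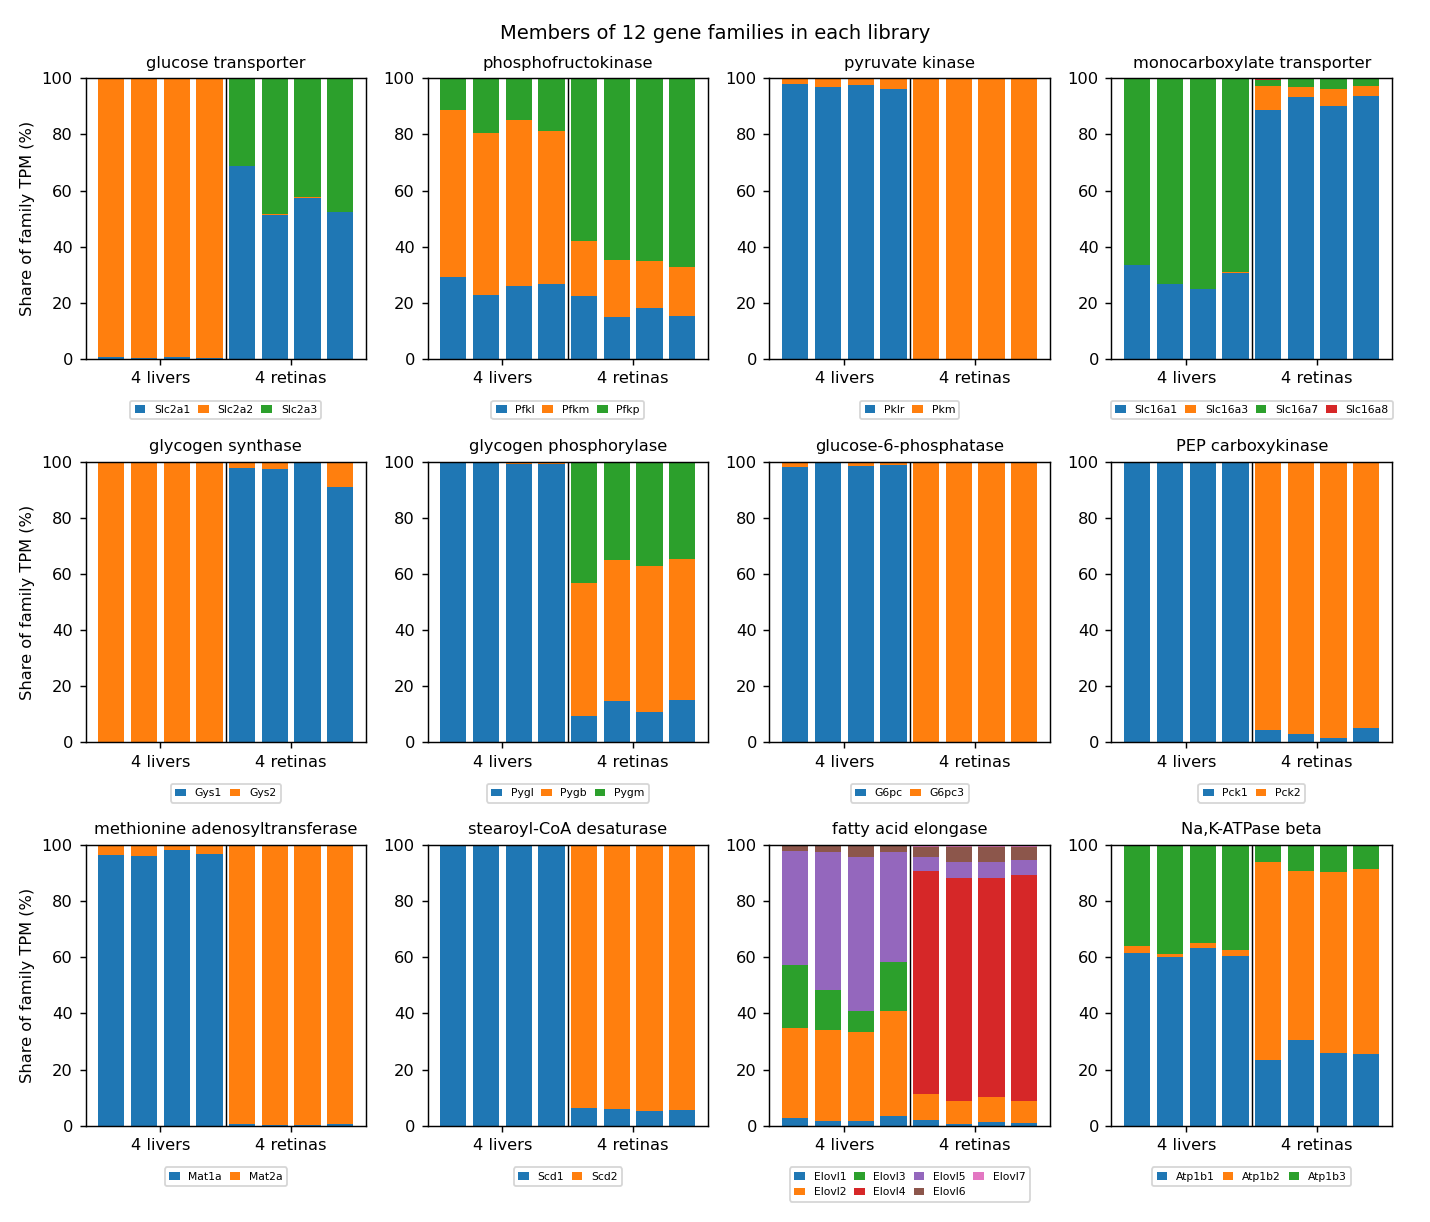
Share of each member in the summed TPM of its family (y axis, percent) for 12 families, as stacked bars that start at 0, with 1 bar for each of 4 livers and 4 retinas. The leading colour changes from liver to retina in all 12 families, such as from Pygl (99.6% on average) to Pygb (50.2%) in glycogen phosphorylase, and is the same in all libraries of a tissue.

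Among shared genes, the 5 genes of at least 100 CPM with a logFC nearest 0 were Pgk1, Reep6, Vma21, Gmfb and Bsg. Pgk1, phosphoglycerate kinase of glycolysis, had 593, 532, 624 and 420 CPM in liver and 506, 606, 546 and 488 CPM in retina (logFC 0.00 ± 0.15). Bsg, basigin, a partner of lactate transporters, had 193 to 211 CPM in liver and 175 to 251 CPM in retina (logFC 0.01 ± 0.13). Vma21, an assembly factor of the proton pump, and Gmfb, a regulator of actin branching, stood near 108 CPM in both tissues (109 ± 29.9 and 108 ± 27.2 CPM in liver). The groups of all 5 overlapped. Shared calls depend on the scaling: with library totals in place of TMM the median logFC of all genes moves by -1.84, so that differences toward liver below that size turn to retina, and 1113 genes are called shared instead of 1950.

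Of 15 housekeeping genes, 6 were higher in liver, against 28.3% of all genes, 3 were higher in retina, against 39.5%, and 6 were not called. Of these 6, 2 were shared, against 12.6% of all genes. The median logFC was 0.66, or -1.16 with library totals, which gave 3 higher in liver and 8 in retina. B2m, the light chain of class I histocompatibility molecules, was 127-fold higher in liver, at 3425 ± 649 against 26.8 ± 3.91 CPM. Sdha of complex II was 4.02-fold higher in liver, with logFC 0.20 by library totals. Gapdh stood at 305 to 825 CPM in liver and 528 to 1181 CPM in retina with overlapping groups (logFC -0.34 ± 0.32, limma adjusted p = 0.349), and was called higher in retina with library totals (logFC -2.16, adjusted p = 0.000162).

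Genes of protein and energy machinery were mostly higher in liver on the TMM scale, and not with library totals. Of 42 cytosolic ribosomal protein genes, 28 were higher in liver and 0 in retina (median logFC 1.11), but with library totals 0 were higher in liver, 10 were higher in retina and the median was -0.71. Rpl4, a protein of the large ribosomal subunit, stood at 553 ± 105 CPM in liver and 219 ± 28.0 CPM in retina and had logFC 1.32 by TMM and -0.49 by library totals. Of 31 proteasome genes, 23 were higher in liver and 0 in retina by TMM, and 0 and 3 by library totals (median 1.20, or -0.62). Of 38 nuclear genes of oxidative phosphorylation, 35 were higher in liver by TMM and 3 by library totals (median 1.84, or 0.03). Atp5b of the ATP synthase stood at 1233 to 1741 CPM in liver against 585 ± 33.7 CPM in retina, with logFC 1.35 by TMM and -0.46 by library totals. The 13 mitochondrially encoded genes had medians of 2.50 by TMM and 0.66 by library totals. Of these, 12 were higher in liver by TMM, and 3 were higher in liver and 1 in retina by library totals. Among them mt-Co1 of cytochrome c oxidase stood at 86140, 131700, 90260 and 91140 CPM in liver against 12780 to 15180 CPM in retina, and mt-Nd3 of complex I was shared. Of the immediate early genes Fos and Egr1, both named after their values were seen, Fos stood at 0.225 to 1.02 CPM in liver and 3.76 to 18.2 CPM in retina (logFC -4.19 ± 0.81), and Egr1 overlapped between the tissues, at 5.69 to 24.9 and 4.72 to 33.3 CPM.

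Transcript tables were used to ask whether both tissues make the same form of a gene. Of 5149 genes with at least 10 CPM in both tissues, 4094 had several transcripts with counts and lengths for all of them. In 2733 of these (66.8%) the shares of transcripts differed between liver and retina by limma's diffSplice (Simes adjusted p below 0.05), and in 2706 (66.1%) the same transcript was the main one in all 8 libraries. The main transcript per length differed between the tissues, and was the same in all 4 libraries of each, in 184 genes that diffSplice also called (4.49%). In 1200 genes (29.3%) the main transcript varied among libraries of a tissue. Transcript levels are estimates that share reads between forms, and shares depend on the length correction: without it 191 genes were called, of which 102 were among the 184.

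In 136 of the 184 genes both transcripts are annotated as protein-coding, and in 48 at least 1 is not. The coding sequence is the same in 23 of the 136 and differs in 113. Of these 113, the annotated coding sequence starts elsewhere in 47, ends elsewhere in 35 and keeps both ends in 44. Some annotated coding sequences are not a whole number of codons, such as 499 bases in the liver transcript of Fh1 and 2270 bases in the retinal one of Vps13c. Incomplete annotation was therefore not separated from another start or stop codon or from another length. The annotated coding sequence is longer in the retinal transcript in 75 genes, longer in the liver transcript in 32 and equal in length in 6. First exons do not overlap in 82 of the 184 genes and last exons in 47. In 33 genes the coding sequences differ in whole internal exons only. These hold 40 such exons, 29 in the retinal and 11 in the liver transcript.

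Internal coding exons of 8 genes that the main transcript of one tissue holds and that of the other lacks are printed here, because they show what the 2 forms differ in. The shares given below are those of the whole main transcript. Other transcripts of a gene that hold or lack the exon are not counted in them. In Psap, Clta and Reep6 the transcripts differ elsewhere too, and in the other 5 genes the coding sequences differ in this exon alone. Sequences are from GENCODE M21 transcripts (GRCm38) with the same identifier and version as the deposited tables. The tissue exon is in capitals, with the adjoining 15 bases of the exons on either side in lower case. Psap and Pls3 were named by the largest difference in share and the other genes were chosen after their values were seen.
Psap, retina, chr10:60297537-60297545, plus strand: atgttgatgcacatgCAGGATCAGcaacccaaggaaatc
Pls3, retina, chrX:75799717-75799743, minus strand: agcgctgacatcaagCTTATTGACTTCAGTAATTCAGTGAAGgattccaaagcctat
Daam1, retina, chr12:71958747-71958773, plus strand: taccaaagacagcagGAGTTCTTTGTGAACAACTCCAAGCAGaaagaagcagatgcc
Clta, retina, chr4:44030215-44030268, plus strand: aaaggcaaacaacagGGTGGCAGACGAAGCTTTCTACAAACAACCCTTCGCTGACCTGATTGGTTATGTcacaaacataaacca
Clta, retina, chr4:44031400-44031435, plus strand: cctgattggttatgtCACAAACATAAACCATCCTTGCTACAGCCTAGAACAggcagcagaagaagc
Cltb, retina, chr13:54597026-54597079, minus strand: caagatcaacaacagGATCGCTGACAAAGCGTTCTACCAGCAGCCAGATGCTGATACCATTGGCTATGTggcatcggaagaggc
Reep6, retina, chr10:80334713-80334793, plus strand: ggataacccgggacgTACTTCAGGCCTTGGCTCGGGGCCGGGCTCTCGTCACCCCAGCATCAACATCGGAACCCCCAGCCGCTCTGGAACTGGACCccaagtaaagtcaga
Opa1, liver, chr16:29588823-29588876, plus strand: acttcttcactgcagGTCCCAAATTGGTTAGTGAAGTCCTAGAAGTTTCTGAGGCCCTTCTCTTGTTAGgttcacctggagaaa
Atp6v1h, liver, chr1:5101070-5101123, plus strand: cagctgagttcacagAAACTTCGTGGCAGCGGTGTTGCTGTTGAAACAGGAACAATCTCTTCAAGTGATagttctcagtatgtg

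Psap, prosaposin, the precursor of lysosomal lipid-binding proteins, had nearly equal gene levels (253 and 237 CPM) and other main transcripts. The Psap form with the 9-base exon, exon 8 of 15, made up 76.4, 78.2, 75.1 and 75.8% in the retinas and 4.03, 5.90, 4.48 and 5.14% in the livers (diffSplice adjusted p = 2.53e-13). The main liver form of Psap, which lacks it and has another first exon and start codon, made up 92.8 to 95.7% in liver and 18.6 to 21.2% in retina. In Pls3, plastin 3, which bundles actin, the form with the 27-base exon made up 70.5 to 75.9% in retina and at most 2.49% in liver. In Daam1, a formin that nucleates actin, the form with another 27-base exon made up 70.1 to 85.4% in retina and 8.56 to 17.8% in liver. All 3 exons are short, and in each gene the groups did not overlap.

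The clathrin light chains, which trim the coats of endocytic vesicles and are known to carry inserts in neurons, both changed form. The Clta form with the 54-base and the 36-base exon made up 62.4 to 69.0% in retina and at most 0.456% in liver, where the form without both, which also lacks 6 coding bases at the end of another exon, made up 50.1 to 74.7%. The Cltb form with its 54-base exon made up 48.1 to 56.8% in retina and at most 1.10% in liver. In retina replicate 2 the margin of this Cltb form over the other was narrow, at 48.1% against 47.7%, and it led in 8 of the 12 other retinas. In Dync1i2, a chain of the dynein motor, the form with a 60-base exon made up 43.9 to 54.6% in retina and had no count in any liver.

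Exons in the liver form were fewer. Opa1, which fuses inner mitochondrial membranes, held a 54-base exon in its main liver transcript, at 42.2 to 55.6% in liver and at most 1.50% in retina. In Atp6v1h, a subunit of the proton pump, the form with a 54-base exon made up 60.6 to 85.0% in liver and 15.9 to 19.8% in retina. Reep6, an endoplasmic reticulum protein needed by rods, was a shared gene (logFC 0.00 ± 0.27) with other main transcripts. The retinal Reep6 form, with the 81-base exon 5 of 6, made up 65.2 to 83.8% in retina and 12.2 to 20.5% in liver, and the liver one made up 28.8 to 38.6% in liver and at most 0.726% in retina.

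Other genes with large differences in share changed an end of the transcript, except Shtn1 and E2f3, whose first and last exons overlap. In Epb41l5 and Epb41l4b, proteins that link membranes to the cytoskeleton, a short form led in liver (77.4% and 98.7%) and a long form in retina (95.7% and 78.2%), with coding sequences of 1512 and 2193 bases in Epb41l5 and 1581 and 2697 bases in Epb41l4b. Lifr, the receptor of leukemia inhibitory factor, of which mouse liver is known to make a short secreted form, had a coding sequence of 2157 bases in the main liver transcript and 3276 bases in the retinal one. The short form of Lifr made up 80.0, 64.8, 63.5 and 84.7% in the livers and 3.28 to 5.77% in the retinas. Lima1, an actin-binding protein, and Shtn1, shootin 1 of axon guidance, had the longer coding sequence in liver (2259 against 1779 bases, and 1893 against 1368). Cept1, which completes phosphatidylcholine, and Smug1, a DNA repair glycosylase, changed transcript at equal coding lengths of 1248 and 837 bases. The coding sequence is the same in both transcripts of Smug1 and differs between those of Cept1. E2f3, a cell cycle factor, varied in liver, where the main form made up 63.6 to 100% and led in 7 of the 10 other livers. The call does not rest on the length correction in Epb41l5, Epb41l4b, Cept1, Smug1, Pls3, Psap, Lima1, Shtn1, Daam1 and Reep6, and it needs that correction in Lifr, E2f3, Clta, Cltb and Opa1.

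**Figure D4:**
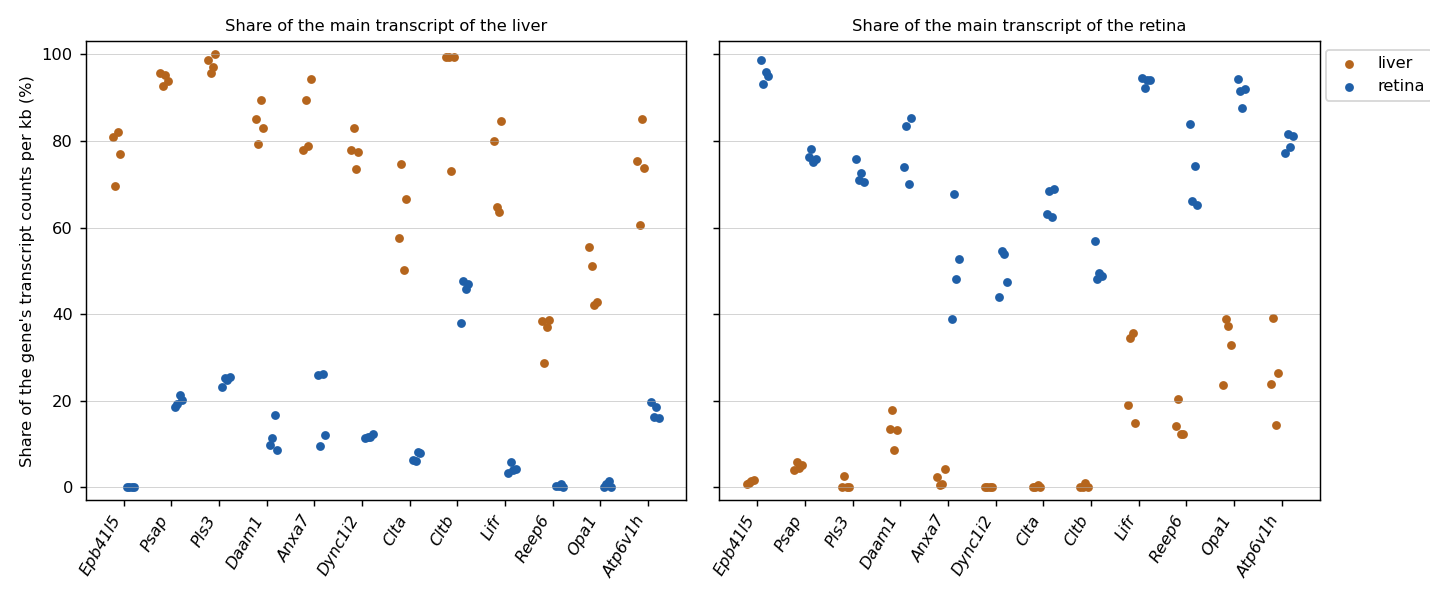
Share of a gene's transcript counts per kb (y axis, percent) taken by the main liver transcript (left) and by the main retinal transcript (right) in 12 genes (x axis), with 1 point for each of 4 livers and 4 retinas. In every gene shown the liver transcript leads in all livers and the retinal one in all retinas, with the narrowest margin in Cltb.

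Each tissue held traces of the other tissue's most abundant restricted transcripts, and the traces were unequal by CPM after TMM. With library totals the traces in liver would be lower and those in retina higher. The size of the gap between them therefore depends on the scaling, and it was not computed with library totals. Over the 20 most abundant retina-restricted genes, the median level in a liver was 0.120, 0.147, 0.128 and 0.206% of the mean retinal level in replicates 33 to 36. Over the 20 most abundant liver-restricted genes, the median level in a retina was 0.00933, 0.00425, 0.000892 and 0.00525% of the mean liver level in replicates 1 to 4. The 20 retinal genes lay close together in liver, from 0.106 to 0.362%, whereas the 20 liver genes in retina ran from 0.00134% (Mup7) to 0.307% (Trf). Both sets were drawn from genes at least 64-fold higher in their own tissue, which limits these ranges from above. Abundant genes with more signal in the other tissue, such as Gnb1, were left out by that rule. The median over the 20 retinal genes was 0.159% and over the 20 liver genes 0.00533%. The part of index hopping in these traces was not tested.

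**Figure D5:**
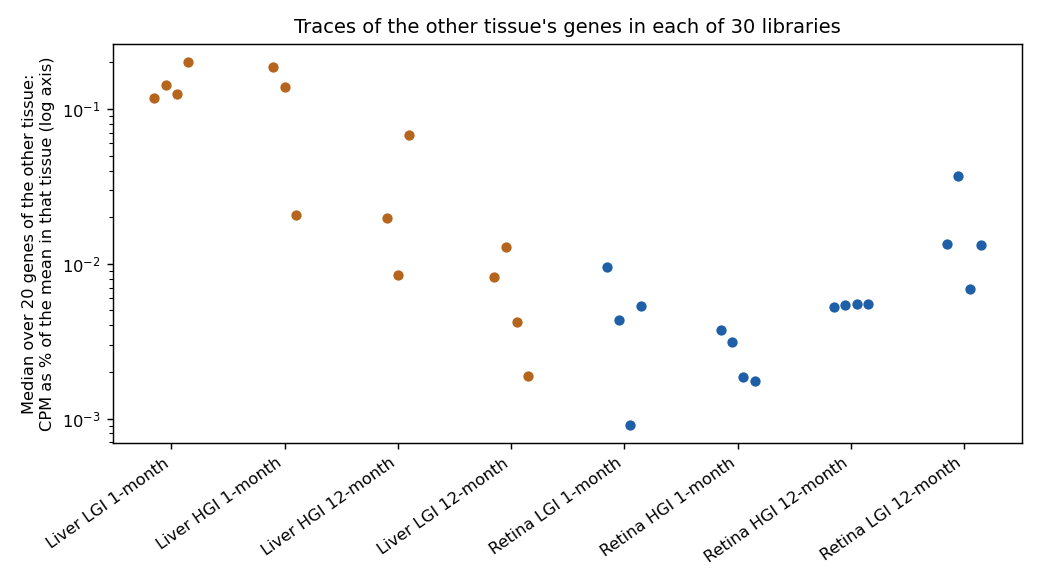
Median level, over the 20 most abundant restricted genes of the other tissue, as percent of that tissue's level (y axis, log scale), with 1 point per library for all 30 libraries in 8 groups. LGI livers after 1 month sit at 0.118 to 0.201% and LGI livers after 12 months at 0.00189 to 0.0128%, while the 16 retinas lie between 0.000912 and 0.0370%. Levels are on a scale fitted to all 30 libraries and not on library totals, so the gap between livers and retinas depends on the scaling.

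The same trace differed between the groups of livers. On a scale fitted to all 30 libraries it was 0.118 to 0.201% in the LGI 1-month livers, 0.0206 to 0.186% in the HGI 1-month livers, 0.00846 to 0.0680% in the HGI 12-month livers and 0.00189 to 0.0128% in the LGI 12-month livers. When the tissue difference in LGI mice fed for 12 months was tested against that after 1 month in a limma interaction, 98 of 15939 genes (0.615%) had an adjusted p under 0.05, while 1672 had a raw p under 0.05. Of the 98, 86 had a larger weight to retina after 12 months and 54 were retina-restricted, against 5.84% of the genes tested after 1 month. The change was -4.85 for Sag (adjusted p = 1.95e-05), -4.52 for Pdc, -4.05 for Nrl and -2.10 for Gnat1. The liver trace in retina also differed, at 0.000912 to 0.00952% in the LGI 1-month retinas and 0.00689 to 0.0370% in the LGI 12-month retinas. The part of these traces, and of index hopping, in the 98 calls was not tested. Leaving out retina replicate 3 of the 1-month group or replicate 22 of the 12-month group lowered the count to 63 in each case.

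The classes were called again in the other groups of mice, which share no library with these 8. In LGI mice after 12 months, 90.3% of the 721 liver-restricted and 92.8% of the 905 retina-restricted genes were called restricted to the same tissue, where 4.35% and 6.17% of all genes were called so. In HGI mice the shares were 94.0% and 94.3% after 1 month, against 4.52% and 6.33% of all genes, and 92.0% and 92.4% after 12 months, against 4.58% and 6.12%. Of the 1950 shared genes, 86.6%, 88.5% and 83.4% were shared in these 3 comparisons, which called 13.7%, 13.4% and 13.9% of all genes shared. Of the 6124 genes higher in retina, 2 were called higher in liver in HGI mice after 12 months, and no other call turned. Among the 184 genes with another main transcript, the liver form stood above the retinal form in all 10 other livers in 139, the retinal form stood above the liver form in all 12 other retinas in 133, and both held in 100.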

How the data were processed

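Polyadenylated RNA of liver and whole retina was sequenced by the study as stranded paired-end libraries with 101-base reads. Per the labels and the study's methods, the authors quantified transcripts with kallisto on the Ensembl mouse annotation (GRCm39), and the estimated counts of genes and of transcripts that they deposited are not normalised. The authors also deposited a normalised signal per gene, made with edgeR as gene counts times a constant for each sample; it was not used here. The versions of kallisto, edgeR and limma are not given in the sources used here. According to the methods, liver and retina shared a sequencing lane, and a set of abundant retinal genes was taken out of the liver data before testing to account for index hopping; the count tables used here still list genes such as Gnat1. Groups came from the sample labels, and columns were matched by name, with 0 columns of other samples.

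Estimated counts were rounded and rows of liver and retina joined by identifier (49398 genes, 48897 with a symbol). Genes with a mean above 1 CPM of library totals in at least 1 tissue entered limma-voom (R 4.3.3, limma 3.58.1) with TMM factors (edgeR 4.0.16), and p-values were adjusted by Benjamini-Hochberg over all genes tested. Errors of logFC are SE, and errors of CPM, TPM and shares are SD. Transcript shares were counts per annotated length, tested with diffSplice; of 141450 transcripts, 137568 had the same identifier and version in GENCODE M21 (GRCm38), which gave lengths, exons and coordinates, since the tables hold none. Genes of which a transcript with counts had no length (52 of at least 10 CPM in both tissues) were left out of shares. Promoters came from RefSeq (GRCm38.p6). The gene fit, the interaction and the transcript test were tested on simulated data. As alternatives, other scalings and limits were tried, as were the quasi-likelihood test of edgeR, DESeq2 1.42.0 and fits without each library in turn.

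The members, gene lists and families were chosen with earlier results of these data known. Named genes were up to 4 of each list by CPM, all members of the families, the 10 most abundant genes of each tissue, the 5 restricted genes of at least 100 CPM with the widest gap in each tissue, the 5 shared genes of at least 100 CPM with the smallest gap and the 10 transcript exchanges with the largest difference in share; from these the text gives a part. Sag, Pde6b, Rbp3, Cnga1, Cyp8b1, Apoe, Clu, Rbpms, Fos, Egr1, Daam1, Clta, Cltb, Dync1i2, Opa1, Atp6v1h, Ptbp1, Esrp2, Nova1, Csf1r, Cx3cr1 and Slco1c1 were named after their values were seen. Shares within families and genes were per length, and abundance ranks used CPM. Some genes are not reported here.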

Additional observations from a re-analysis of the deposited data

Results flagged for a closer look

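The tissue difference after 12 months on the LGI diet differed from that after 1 month, by a limma interaction with adjusted p-values, in 98 genes. Negative values mean a larger weight to retina after 12 months. Among photoreceptor genes the change in logFC was -4.85 for Sag, -4.52 for Pdc, -4.41 for the rod channel gene Cnga1, -4.06 for Pde6b, -4.05 for Nrl, -3.82 for Rbp3, -3.27 for Elovl4, -3.24 for Nr2e3, -2.66 for Grk1, -2.48 for Opn1sw, -2.10 for Gnat1 and -1.88 for Crx. It was -3.53 for Snap25 of the photoreceptor synapse list and, among genes of other retinal cells, -3.04 for Nefl, -3.02 for Rlbp1 and -2.83 for Gad1. The liver-restricted genes Trf and Fabp1 also changed, by -1.39 and -3.19. The median level of retinal transcripts in liver was 0.118 to 0.201% after 1 month and 0.00189 to 0.0128% after 12 months, and that of liver transcripts in retina was 0.000912 to 0.00952% and 0.00689 to 0.0370%. The part of either trace, or of index hopping on the shared lane, in these changes was not tested.

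A single library lay far from the other 3 of its tissue, by Dixon's ratio, in 12 of 204 groups of 4 libraries of the genes named, where chance gives about 1 in 20. In retina replicate 1, Cox4i1 stood at 74.1 CPM against 37.1 to 42.4 in the others, Eno2 at 243 against 169 to 177, Rpl4 at 261 against 203 to 208 and Epb41l5 at 54.5 against 64.5 to 65.4. In retina replicate 2, mt-Nd3 stood at 1380 CPM against 865 to 951 and Nefm at 71.5 against 63.8 to 64.8, and in replicate 4 Grk1 stood at 1610 against 1300 to 1330. In liver replicate 36, Pygl stood at 492 CPM against 717 to 758. In liver replicate 35, Hbb-bs, a beta globin, stood at 83.2 CPM against 20.9 to 25.6 and Prkca at 27.1 against 20.6 to 21.7. In liver replicate 34, mt-Co1 stood at 132000 CPM against 86100 to 91100, and in replicate 33 Egr1 stood at 24.9 against 5.69 to 7.05.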

How the results depend on the processing

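Library totals in place of TMM moved the median logFC of all genes by -1.84. They gave 2013 genes higher in liver, 10714 higher in retina, 1593 retina-restricted and 1113 shared, and turned the direction of Bsg (-1.81), Pgk1 (-1.80), Gmfb (-1.80), Reep6 (-1.84), Rbpms (-1.84), Glul (-1.78), Ldha (-1.77), Psap (-1.74), Clta (-1.46), Atp6v1h (-1.45), Csf1r (-1.17), Lima1 (-1.03), Epb41l5 (-0.99), Prox1 (-0.83), Daam1 (-0.72), Opa1 (-0.55), Rpl4 (-0.49), Atp5b (-0.46) and Cox4i1 (-0.22). Without a filter on low counts 6915 genes were higher in liver, with a fold limit 4 times as high 484 were retina-restricted, and with a limit of 1 CPM 315 genes had another main transcript.

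Leaving out each library in turn gave 4317 to 4485 genes higher in liver, 6018 to 6181 higher in retina, 710 to 740 liver-restricted, 848 to 953 retina-restricted, 1787 to 2006 shared, 192 to 231 with another main transcript and 63 to 136 in the interaction, where this alternative was chosen after seeing the data and 63 came without retina replicate 3 after 1 month and without replicate 22 after 12 months. The counts with another main transcript all lie above the main 184. Dropping a library loosens the rule that the main transcript be the same in every library of a tissue. It turned the sign of genes near 0: logFC ran from -0.02 to 0.16 for Bsg, -0.15 to 0.05 for Dync1i2, -0.09 to 0.14 for Glul, -0.15 to 0.17 for Gmfb, -0.03 to 0.20 for Ldha, -0.07 to 0.12 for Pgk1, -0.10 to 0.09 for Rbpms, -0.13 to 0.31 for Reep6, -0.19 to 0.19 for Vma21 and -0.28 to 0.06 for mt-Nd3. Other tools did so too: edgeR gave 0.00 for Bsg and -0.05 for Reep6, DESeq2 gave -0.03 for Bsg, -0.01 for Rbpms, -0.08 for Reep6, -0.03 for Gmfb and -0.03 for Pgk1, and its size factors in limma gave -0.02 for Bsg, -0.04 for Rbpms, and -0.03 for each of Reep6, Gmfb and Pgk1. In other mice the sign turned for Bsg (-0.29 in HGI mice after 1 month, -0.13 after 12), Glul (-0.13, -0.41), Pgk1 (-0.10, -0.35), Ldha (-0.01 after 1 month), Gmfb (-0.24 after 12), Vma21 (0.05 after 1 month, and 0.33 in LGI mice after 12), Egr1 (0.69 in LGI mice after 12) and Mat2a (0.11 in LGI mice after 12).

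By edgeR 4386 genes were higher in liver and 6137 in retina, and by DESeq2 4309 and 6199. The causes of these shifts were not tested. No paired analysis was possible because livers and retinas carry no common replicate numbers. At this depth a gene without a count could stand at up to 0.044 CPM in liver or 0.0171 CPM in retina, which covers counting error only, so fold changes of genes near 0 in one tissue are imprecise.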

Other observations

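Regulators of splicing differed between the tissues. Of 24 genes, 17 were higher in retina, 9 of them restricted, 3 were higher in liver and 4 were not called. Over all genes 39.5% were higher in retina, 5.84% retina-restricted and 28.3% higher in liver. The median logFC of the 24 was -3.09 against -0.32 over all genes. Nova1, a splicing factor of neurons, stood at 26.4 ± 3.94 CPM in retina and 0.400 ± 0.434 CPM in liver, Celf2 at 152 ± 18.9 and 24.9 ± 7.38 CPM and Msi2 at 269 ± 29.4 and 35.2 ± 5.81 CPM. The 3 genes higher in liver were Esrp2, a splicing factor of epithelia (49.6 ± 6.73 against 0.102 ± 0.0610 CPM), Ptbp3 (213 ± 52.4 against 23.8 ± 3.37 CPM) and Ptbp1, which represses neuronal exons (54.3 ± 10.7 against 13.8 ± 3.42 CPM, logFC 2.02 by TMM and 0.20 by library totals).

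Genes of immune, vessel and stromal cells were present in both tissues at unequal levels. Of 12 leukocyte and macrophage genes tested, 9 were higher in liver, against 28.3% of all genes, and 2 in retina, against 39.5% (median logFC 4.36). Their summed level was 63.8 to 159 CPM in liver and 9.56 to 14.6 CPM in retina. Cd5l, secreted by macrophages, stood at 14.6 to 37.2 CPM in liver and at 0 to 0.0383 CPM in retina, whereas Cx3cr1, a receptor of microglia, was higher in retina at 2.34 to 4.30 CPM against 0.563 to 0.846 CPM. Of 10 endothelial genes, 5 were higher in liver, against 28.3% of all genes, and 2 in retina, against 39.5% (median logFC 1.17), but with library totals 4 were higher in liver, 5 were higher in retina and the median was -0.68. Fcgr2b, a marker of liver sinusoids, was 95.8-fold higher in liver, Kdr, the main receptor of vascular endothelial growth factor, was 2.46-fold higher in retina, and Slco1c1, a transporter of the blood-brain and blood-retina barriers, was 25.8-fold higher in retina. Genes of stellate and bile duct cells were split: of 5 tested, 3 were higher in liver, 1 was higher in retina and 1 was not called. With library totals 1 was higher in liver and 2 were higher in retina. Among them Dcn, a proteoglycan of stromal cells, stood at 206 to 338 CPM in liver and 0.800 to 2.05 CPM in retina.

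Of 5 erythrocyte genes tested, all were higher in liver (median logFC 3.08), and with library totals 2 were (median 1.21). Alas2, the heme synthesis enzyme of red cells, stood at 90.3 to 119 CPM in liver and 0.128 to 0.287 CPM in retina, and Hbb-bs at 20.9 to 83.2 and 1.86 to 6.30 CPM. Hbb-bs had logFC 1.21 and a limma adjusted p of 0.0566 with library totals.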
